A study of Mus musculus with 12 samples.

Results

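Insulin-like growth factor (IGF) signalling was described through 10 genes, the ligand Igf1, its receptor Igf1r, the receptor's docking proteins Irs1 and Irs2, and the binding proteins Igfbp2 to Igfbp7. The members were selected on gene symbol: every probe set of the array whose annotation gives one of these symbols and no other was taken, which made 21 probe sets of the 20393 that name 1 gene. No measured value enters that rule, but the 10 genes were chosen with the injury responses of these same 12 arrays in view. The values of the members are therefore a description, and their adjusted p-values say only whether a change is larger than the spread between arrays.

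Mice were wild-type female C57BL/6 animals aged 10 weeks in all groups. The injured groups had a laminectomy with an 80% transection of the spinal cord, and the sham groups, which the sample titles call naive, had the laminectomy alone. A 2.5 cm piece of cord centred on the operated site was removed at 9 h and homogenised. Polysome-bound RNA came from a sucrose gradient, total RNA came from an aliquot taken before it, and there were 3 biological replicates in each of the 4 groups (polysome-bound injured, polysome-bound sham, total injured and total sham). Whether a replicate is 1 animal or a pool is not given in the sources used here.

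IGF1 is secreted and acts on neurons and glia through a receptor tyrosine kinase. The activated receptor phosphorylates the IRS docking proteins, which recruit PI3-kinase and so activate AKT, and AKT in turn restrains FoxO transcription factors and stimulates mTOR. IGF binding proteins hold IGFs in the extracellular space and either block or prolong their action, and proteases free the ligand again. In the cord, IGF1 is known as a survival and myelination factor, and its receptor is present on many neurons and glial cells. An mRNA found in the polysome fraction carries several ribosomes, so the fraction samples mRNA in translation.

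The docking proteins Irs1 and Irs2 went different ways in total RNA after injury. Irs2 rose on polysomes, by 1.62-fold, while it was 1.77-fold lower in total RNA. Irs1 rose in total RNA, by 0.58 on the log2 scale, and its change on polysomes was 0.17 (adjusted p = 0.077). The ligand Igf1 fell on polysomes by all 3 of its probe sets. Among the binding proteins, Igfbp3 rose in both fractions, with a 3.90-fold rise in total RNA, and the brightest probe set of Igfbp7 fell on polysomes and rose in total RNA. The receptor Igf1r and the binding proteins Igfbp2 and Igfbp6 passed the test in neither fraction.

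Of the 21 member probe sets, all of which were above the filter on dim probe sets, 12 were called on polysomes at an adjusted p under 0.05 (limma, all 16566 probe sets tested), 2 higher and 10 lower in injured cord. Over all probe sets tested, 38.8% were called on polysomes, 11.8% higher and 27% lower. In total RNA 14 were called, 8 higher and 6 lower, where 59.8% of all probe sets were called, 37.3% higher and 22.4% lower. The share of members called was near that of the array in total RNA and above it on polysomes. Since the members were chosen with these responses in view, neither share is a result about the pathway. Probe sets of 1 gene are also not independent: the calls fell on 5 genes on polysomes and 7 in total RNA. With 1 probe set for each of the 10 genes, 5 were called on polysomes and 6 in total RNA. The median change of the members was -0.20 on polysomes, against -0.05 over all probe sets, and 0.07 in total RNA, against 0.08. All levels are deposited log2 values, a change of 1 being a doubling, and levels of different probe sets were not compared with each other.

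**Figure D1:**
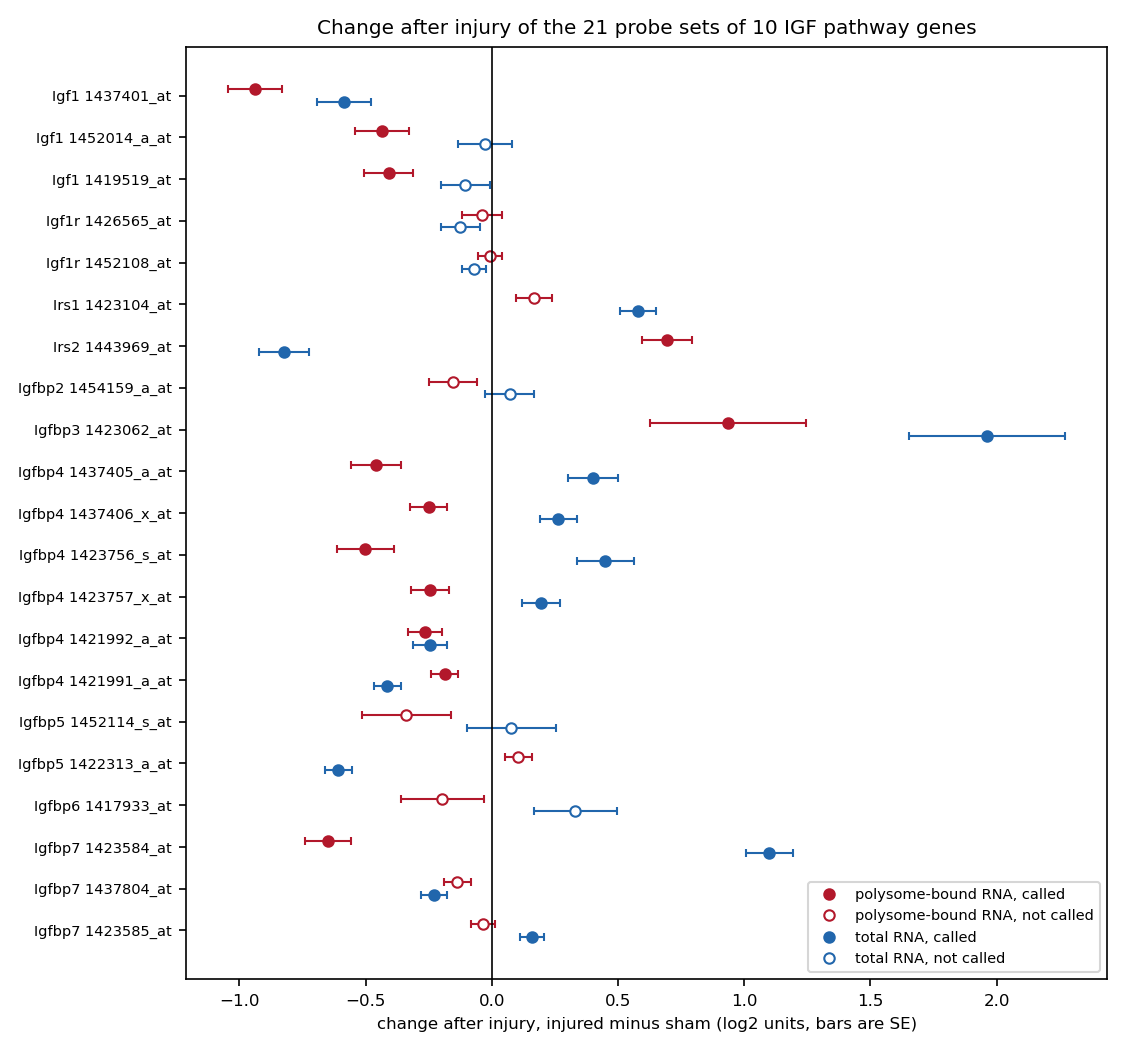
Change after injury (injured minus sham, log2 units, bars are limma standard errors) of the 21 probe sets, red for polysome-bound and blue for total RNA, filled where the adjusted p is under 0.05. Irs2 lies right of zero on polysomes and left of it in total RNA, and Igfbp7 1423584_at and 4 of the Igfbp4 probe sets lie the other way round.

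Arrays of a group correlated at 0.9925 to 0.9977 across probe sets. A measure of RNA quality differed between the groups: the difference between the 3′ and the 5′ control probe sets of Gapdh was 2.83 ± 0.27 on polysome-bound injured arrays and 0.87 ± 0.03 on polysome-bound sham arrays, and 1.40 ± 0.22 on total injured arrays and 0.23 ± 0.05 on total sham arrays (log2, SD, n = 3 each). Added hybridization controls averaged 10.37 on polysome-bound injured arrays against 10.81 on polysome-bound sham arrays, and 10.45 in total injured RNA against 10.99 in total sham RNA. Both measures moved with injury, and their part in the changes below was not tested. When arrays were weighted by how well they followed the rest, polysome-bound injured replicates 1 and 2 had weights of 0.22 and 0.41 and the other arrays 0.87 to 2.01. The markers of neurons, astrocytes and oligodendrocytes that were tested (7, 8 and 7 genes) were above the highest absent control on every array, which fits the label of spinal cord tissue. In bulk tissue, fewer cells of a type and less RNA per cell cannot be told apart.

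Igf1, the ligand (chr10:87858265-87937047, GRCm38.p6), has 3 probe sets, and the brightest, 1437401_at, read 7.38, 7.47 and 7.52 on polysome-bound injured arrays, against 8.33, 8.36 and 8.50 on polysome-bound sham arrays. It read 8.81, 8.58 and 8.43 in total injured RNA, against 9.12, 9.02 and 9.44 in total sham RNA. Injured arrays were below sham arrays without overlap in both fractions. The change was -0.94 (SE 0.11, n = 3 a group, limma adjusted p = 2.2e-05) on polysomes and -0.59 (SE 0.11, limma adjusted p = 4.6e-04) in total RNA. The 2 other probe sets fell on polysomes, 1452014_a_at by 0.44 (limma adjusted p = 0.0054) and 1419519_at by 0.41 (limma adjusted p = 0.0044). In total RNA the same 2 probe sets did not pass the test, with changes of -0.03 (adjusted p = 0.85) and -0.10 (adjusted p = 0.36). The probe sets of Igf1 therefore share the fall on polysomes and disagree in total RNA. The difference between the polysome and the total change was -0.35 for 1437401_at (adjusted p = 0.067) and -0.30 for 1419519_at (adjusted p = 0.078), and -0.41 for 1452014_a_at (limma adjusted p = 0.036). Which of them passed depended on the setting: 1452014_a_at lost its call after median centring (-0.32, adjusted p = 0.093) and without any of 8 of the 12 arrays, 1419519_at was called after quantile normalization over the 12 arrays (-0.38, adjusted p = 0.030), and 1437401_at was called without total injured replicate 3 (-0.44, adjusted p = 0.029). Probe set 1419519_at was close to background, since only 1 of 3 polysome-bound injured arrays was above the highest absent control.

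Homeostatic microglia, resting microglia that are a known source of Igf1 in nervous tissue, had lower marker levels in the same arrays. Over all genes, each by its brightest probe set, 24.9% were called lower on polysomes and 17.9% in total RNA. Of 6 markers tested, 5 fell on polysomes (median of the list -0.48) and 4 fell in total RNA (median -0.52), and none rose. Their summed level was 10.57 to 10.70 on polysome-bound injured arrays against 10.99 to 11.14 on polysome-bound sham arrays, and 11.40 to 11.58 in total injured RNA against 11.71 to 11.79 in total sham RNA (log2 of the sum). The markers P2ry12 and Gpr34 were at background on all polysome-bound injured arrays. The part of these cells in the fall of Igf1 was not tested.

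Igf1r (chr7:67952257-68233668), the tyrosine kinase receptor for IGF1 and IGF2, did not pass the test. Its brighter probe set, 1426565_at, read 7.12, 7.25 and 7.11 on polysome-bound injured arrays, against 7.33, 7.06 and 7.20 on polysome-bound sham arrays. In total RNA it read 7.96, 7.80 and 8.10 in injured cord, against 8.07, 8.06 and 8.11 in sham cord. The groups overlapped in both fractions, with changes of -0.04 (adjusted p = 0.73) and -0.12 (adjusted p = 0.19, limma). The total RNA change was called after quantile normalization over the 12 arrays (-0.19, adjusted p = 0.042). The dimmer probe set, 1452108_at, did not exceed the highest absent control on any total RNA array, and its changes were -0.01 on polysomes and -0.07 in total RNA.

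Irs1 and Irs2 are scaffolds that carry the signal from the receptor to PI3-kinase. Irs1 (chr1:82233105-82291439, probe set 1423104_at) read 8.92, 8.94 and 8.78 on polysome-bound injured arrays, against 8.78, 8.74 and 8.61 on polysome-bound sham arrays. In total RNA it read 9.80, 9.90 and 9.84 in injured cord, against 9.28, 9.34 and 9.17 in sham cord. The total RNA groups were well apart, whereas the polysome groups overlapped slightly. The change in total RNA was 0.58 (SE 0.07, limma adjusted p = 2.1e-05), and on polysomes 0.17 (SE 0.07, adjusted p = 0.077). The polysome change was called after quantile normalization over the 12 arrays (0.24, adjusted p = 0.025), quantile normalization within each fraction (0.27, adjusted p = 0.015) or median centring (0.25, adjusted p = 0.013), and also without polysome-bound injured replicate 3.

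Irs2 (chr8:10984681-11008929) has 1 probe set, 1443969_at, whose place in the transcript was not analysed here. On polysome-bound injured arrays it read 9.39, 9.82 and 9.48, against 8.90, 8.83 and 8.88 on polysome-bound sham arrays. In total injured RNA it read 7.75, 7.52 and 7.81, against 8.53, 8.48 and 8.54 in total sham RNA. Every injured polysome array was above every sham polysome array, and every injured total array was below every sham total array. The means were 9.56 ± 0.23 and 8.87 ± 0.04 on polysomes and 7.69 ± 0.15 and 8.52 ± 0.03 in total RNA (injured, then sham, SD, n = 3 each). The change was 0.69 (SE 0.10, 95% interval 0.48 to 0.90) on polysomes and -0.82 (SE 0.10, 95% interval -1.03 to -0.61) in total RNA. Both changes stayed called, with the same sign, when any 1 of the 12 arrays was left out and under each other setting tried. Since Irs2 was chosen with these responses in view, this describes the dependence on processing and is no separate evidence.

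The difference between these changes, polysome minus total, was 1.52 for Irs2 (SE 0.14), or 1.65 relative to the median of all probe sets, which was -0.14 as deposited and -0.0018 after quantile normalization over the 12 arrays. It stood 8th from the top of 16566 probe sets, a rank that only describes a gene chosen with these responses in view. Over the whole array, 176 probe sets, 1.06%, were called higher on polysomes and lower in total RNA, and Irs2 was the only member among them as deposited, joined by Igfbp5 1422313_a_at under each of the 3 other scalings. For Irs1 the difference was -0.41 (SE 0.10, limma adjusted p = 0.0044), and it lost its call after quantile normalization over the 12 arrays (-0.14, adjusted p = 0.34) or within each fraction (-0.08, adjusted p = 0.61).

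**Figure D2:**
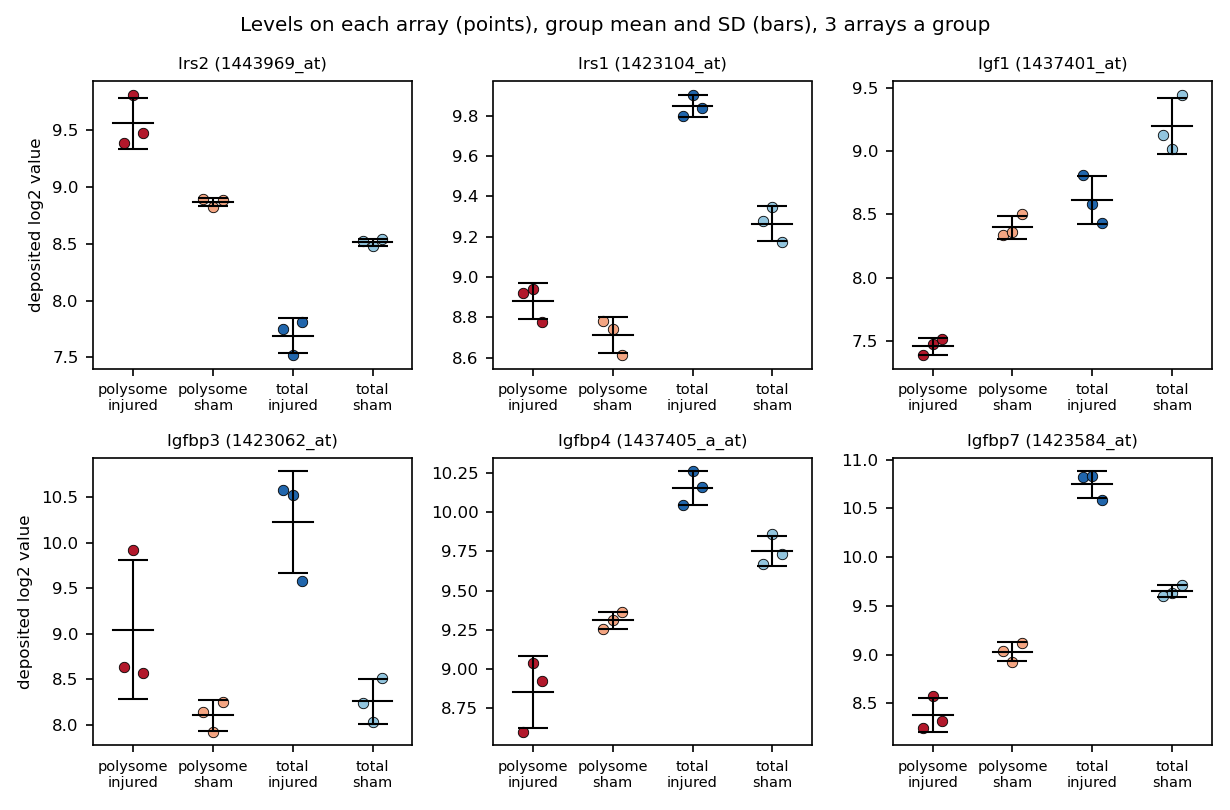
Deposited log2 value on each array (points) with the mean and SD of the 3 arrays of a group (bars), for the brightest probe set of 6 members; the vertical axes differ and do not start at 0. Irs2 is high on polysome-bound injured arrays (9.39 to 9.82) and low on total injured arrays (7.52 to 7.81), and Igfbp7 is the reverse (8.24 to 8.57 and 10.59 to 10.83).

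The genes whose brightest probe set followed the Irs2 levels most closely were searched over the 10371 genes with a probe set tested. They were Atrx (r = 0.987), a chromatin remodeller, Iffo2 (r = 0.986), Ttc28 (r = 0.985), Zdhhc8 (r = 0.977), a palmitoyltransferase, and Pja2 (r = 0.974), a ubiquitin ligase. These are Pearson correlations over the 12 arrays, which fall into 4 groups, and they carry no p. Their changes after injury were 0.30 to 0.57 on polysomes and -0.70 to -0.25 in total RNA, each smaller in size than that of Irs2.

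The 3 members with the largest changes in total RNA, Irs2, Igfbp3 and Igfbp7, are shown with the 250 bases before their RefSeq start (GRCm38.p6), since their total RNA moved in different directions. The start is that of RefSeq's promoter table, which for Igfbp3 lies inside the span of the gene given with its values, so the Igfbp3 window lies within that span too. Capitals mark the core of the hypoxia response element, ACGTG or GCGTG on either strand.
Irs2 promoter, chr8:11008930-11009179, minus strand: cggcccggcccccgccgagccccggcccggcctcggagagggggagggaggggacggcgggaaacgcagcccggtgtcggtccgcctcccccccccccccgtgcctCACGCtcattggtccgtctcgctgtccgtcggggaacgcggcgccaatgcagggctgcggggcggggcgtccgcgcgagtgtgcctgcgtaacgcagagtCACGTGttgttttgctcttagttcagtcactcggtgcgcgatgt
Igfbp3 promoter, chr11:7213924-7214173, minus strand: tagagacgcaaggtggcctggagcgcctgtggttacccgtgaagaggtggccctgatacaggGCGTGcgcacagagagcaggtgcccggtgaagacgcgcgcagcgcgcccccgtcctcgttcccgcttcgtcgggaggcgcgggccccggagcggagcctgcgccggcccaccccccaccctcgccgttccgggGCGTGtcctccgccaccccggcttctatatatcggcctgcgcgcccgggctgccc
Igfbp7 promoter, chr5:77408046-77408295, minus strand: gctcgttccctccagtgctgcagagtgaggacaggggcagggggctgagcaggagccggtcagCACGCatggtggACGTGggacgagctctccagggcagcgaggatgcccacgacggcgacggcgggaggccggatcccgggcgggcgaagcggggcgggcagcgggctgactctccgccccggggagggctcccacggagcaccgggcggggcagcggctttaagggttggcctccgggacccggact
The Irs2 window held 3 matches, 2 of them overlapping in a palindrome, and the windows of Igfbp3 and Igfbp7 held 2 each. The core is common, being present in 38.6% of 32851 promoter windows of the same length. The FoxO core GTAAACA (3.17% of windows), the cyclic AMP response core TGACG (17.8%) and the glucocorticoid receptor core AGAACA (16.1%), searched on both strands, were not found in these 3 windows. The words were chosen after the values were seen, a match is not a site, and the shares were not matched for base composition, which was 72.8% to 74.0% G and C in these windows. The hypoxia core was not confined to these 3 members. It had 3 matches in Igf1r, 3 in Irs1, 1 in Igf1 and 4 in 1 of the 2 Igfbp2 windows. The windows of Igfbp4, Igfbp5 and Igfbp6 and the other Igfbp2 window held none. Igf1r and Igfbp2 were not called after injury in either fraction as deposited.

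Igfbp3, the main IGF carrier of blood, which is also made by vascular and stromal cells, had the largest rise of the members. Its single probe set, 1423062_at (chr11:7206086-7215498), read 8.64, 9.92 and 8.57 on polysome-bound injured arrays, against 8.15, 7.92 and 8.26 on polysome-bound sham arrays. In total injured RNA it read 10.58, 10.52 and 9.58, against 8.24, 8.03 and 8.52 in total sham RNA. The groups did not overlap in either fraction, but replicate 2 stood high among the polysome-bound injured arrays and replicate 3 low among the total injured arrays. The change in total RNA was 1.96 (SE 0.31, limma adjusted p = 1.4e-04), 28th from the top of the array. On polysomes it was 0.94 (SE 0.31, limma adjusted p = 0.027), and it lost its call without polysome-bound injured replicate 2 (0.50, adjusted p = 0.10), without polysome-bound sham replicate 1 (0.96, adjusted p = 0.058) and without polysome-bound sham replicate 2 (0.84, adjusted p = 0.089). The changes in the fractions differed by -1.03 (SE 0.44, adjusted p = 0.063), a difference that was called without total injured replicate 3 (-1.35) or without polysome-bound injured replicate 2 (-1.47). Of 7 neutrophil and 7 monocyte or macrophage markers tested, 3 of each list were higher on polysomes and 5 of each in total RNA, with 1 lower each time. Over all genes, 13.5% were called higher and 24.9% lower on polysomes, and 41.8% and 17.9% in total RNA. The medians of the neutrophil and the monocyte or macrophage list were 0.13 and 0.02 on polysomes, and 0.24 and 0.68 in total RNA. Cxcr2, 1 of the 3 neutrophil markers higher on polysomes, was at background on all polysome-bound arrays. The summed neutrophil level was 10.70 to 11.61 on polysome-bound injured arrays against 10.30 to 10.57 on polysome-bound sham arrays, and 11.95 to 12.69 in total injured RNA against 11.12 to 11.54 in total sham RNA. The summed monocyte or macrophage level was 9.83 to 10.16 against 9.81 to 9.97 on polysomes and 11.19 to 11.54 against 10.45 to 10.56 in total RNA, injured before sham. Their part in the rise of Igfbp3 was not tested.

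Igfbp7, which binds IGFs weakly and is known as a product of vascular endothelium, had a probe set that moved in opposite directions in the fractions. Probe set 1423584_at (chr5:77349240-77408045) read 8.24, 8.57 and 8.32 on polysome-bound injured arrays, against 9.04, 8.93 and 9.12 on polysome-bound sham arrays. In total injured RNA it read 10.82, 10.83 and 10.59, against 9.60, 9.63 and 9.72 in total sham RNA. Injured arrays were thus lower on polysomes and higher in total RNA, with no overlap in either. The change was -0.65 (SE 0.09, limma adjusted p = 1.1e-04) on polysomes and 1.10 (SE 0.09, limma adjusted p = 9.1e-07) in total RNA. The difference between them was -1.75 (SE 0.13, limma adjusted p = 5e-06), or -1.61 relative to the median of all probe sets, and it stood 5th from the bottom of 16566. All 3 calls held in each fit with an array left out and in each other setting tried. Igfbp7 too was chosen with these responses in view, so its rank and calls are a description. The 2 other probe sets did not show this. Probe set 1437804_at had changes of -0.14 on polysomes (adjusted p = 0.054) and -0.23 in total RNA (limma adjusted p = 0.0022). Probe set 1423585_at, which was at or under the highest absent control on all 12 arrays, had changes of -0.03 (adjusted p = 0.60) and 0.16 (limma adjusted p = 0.011).

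Over all genes, 13.5% were called higher and 24.9% lower on polysomes, and 41.8% and 17.9% in total RNA. Of 9 endothelial markers tested, 2 fell on polysomes, near the share of all genes, and none rose. In total RNA 3 rose and 3 fell. Their summed level was 9.78 to 9.87 on polysome-bound injured arrays against 9.87 to 10.02 on polysome-bound sham arrays, and 11.81 to 11.89 in total injured RNA against 11.61 to 11.82 in total sham RNA. On polysomes, 3 of the 9 were at background in both groups. Of 6 pericyte markers tested, 1 fell on polysomes, and 4 rose and 1 fell in total RNA, with summed levels of 10.24 to 10.43 on polysome-bound injured arrays against 10.42 to 10.69 on polysome-bound sham arrays, and 12.29 to 12.40 in total injured RNA against 11.999 to 12.205 in total sham RNA. The part of vascular cells in the change of Igfbp7 was not tested.

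Igfbp4 (chr11:99040005-99052655), an inhibitory binding protein that the protease Pappa cleaves, has 6 probe sets. Probe set 1437405_a_at read 8.60, 9.04 and 8.92 on polysome-bound injured arrays, against 9.26, 9.31 and 9.36 on polysome-bound sham arrays, a change of -0.46 (SE 0.10, limma adjusted p = 0.0024). In total injured RNA it read 10.05, 10.26 and 10.16, against 9.67, 9.86 and 9.73 in total sham RNA, a change of 0.40 (SE 0.10, limma adjusted p = 0.0034). All 6 probe sets fell on polysomes as deposited, by 0.19 to 0.50, although 1421991_a_at was at background on all polysome-bound injured arrays. In total RNA the 4 brighter ones (1437405_a_at, 1423756_s_at, 1437406_x_at and 1423757_x_at) were higher, by 0.19 to 0.45, and the 2 dimmer ones, 1421992_a_at and 1421991_a_at, were lower, with changes of -0.25 and -0.41. The direction of Igfbp4 in total RNA thus depended on the probe set. It also depended on the scaling: after quantile normalization over the 12 arrays the change of 1437405_a_at in total RNA was 0.14 (adjusted p = 0.17) and that of 1423757_x_at turned to -0.0052 (adjusted p = 0.96). That of 1437406_x_at was then 0.027 (adjusted p = 0.81), and 1423756_s_at lost its call after quantile normalization within each fraction (0.22, adjusted p = 0.078). The total RNA call of 1423757_x_at was also lost without any of 5 of the 12 arrays. On polysomes the calls of 1437405_a_at, 1423756_s_at and 1421992_a_at held under the 3 other scalings, those of 1437406_x_at and 1423757_x_at under none of them, and that of 1421991_a_at was lost after median centring.

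With those 4 Igfbp4 probe sets and Igfbp7 1423584_at, 5 of the 21 member probe sets were called lower on polysomes and higher in total RNA, a pattern that 1381 probe sets, 8.34% of the array, showed. These are counts for the values as deposited: 3 of the 5 members remained after median centring, 2 after quantile normalization over the 12 arrays (Igfbp7 1423584_at and Igfbp4 1423756_s_at) and 1, that of Igfbp7, after quantile normalization within each fraction. The 4 Igfbp4 probe sets measure 1 gene and are not independent of each other.

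Igfbp5 (chr1:72858065-72874865), which binds extracellular matrix, gave 2 answers. Probe set 1452114_s_at read 9.33, 9.40 and 9.02 on polysome-bound injured arrays, against 9.49, 9.46 and 9.82 on polysome-bound sham arrays, and 11.01, 10.44 and 10.22 in total injured RNA, against 10.26, 10.45 and 10.72 in total sham RNA. Its changes, -0.34 (adjusted p = 0.15) and 0.08 (adjusted p = 0.72), did not pass the test, and total injured replicate 1 stood above the rest. Probe set 1422313_a_at read 6.91, 6.99 and 6.91 on polysome-bound injured arrays, against 6.76, 6.85 and 6.89 on polysome-bound sham arrays, and 7.44, 7.40 and 7.33 in total injured RNA, against 7.98, 7.96 and 8.05 in total sham RNA. It fell by 0.61 in total RNA (SE 0.05, limma adjusted p = 1.3e-06), while on polysomes its change was 0.10 (adjusted p = 0.14), called after quantile normalization over the 12 arrays (0.17, adjusted p = 0.018) and median centring (0.18, adjusted p = 0.012). The levels of 1452114_s_at followed those of Col6a2 (r = 0.990) and Col3a1 (r = 0.982), collagens of connective tissue, most closely over the 12 arrays. Over all genes, 13.5% were called higher and 24.9% lower on polysomes, and 41.8% and 17.9% in total RNA. Of 8 markers of meningeal fibroblasts, 5 fell on polysomes and none rose (median -0.53), and 2 rose and 2 fell in total RNA. Their summed level was 11.84 to 12.20 on polysome-bound injured arrays against 12.12 to 12.40 on polysome-bound sham arrays, and 12.86 to 13.11 in total injured RNA against 12.50 to 12.98 in total sham RNA. Their part in the Igfbp5 levels was not tested.

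Igfbp2 (chr1:72824480-72852474, probe set 1454159_a_at), a binding protein of brain and cerebrospinal fluid, read 9.73, 9.69 and 9.53 on polysome-bound injured arrays, against 9.68, 9.74 and 9.98 on polysome-bound sham arrays. In total RNA it read 9.49, 9.68 and 9.54 in injured cord, against 9.34, 9.53 and 9.63 in sham cord. The groups overlapped, with changes of -0.15 (95% interval -0.36 to 0.05, adjusted p = 0.23) and 0.07 (95% interval -0.13 to 0.28, adjusted p = 0.54). Igfbp6 (chr15:102144186-102149512, probe set 1417933_at), which prefers IGF2, read 8.25, 8.58 and 8.31 on polysome-bound injured arrays, against 8.41, 8.52 and 8.80 on polysome-bound sham arrays. In total RNA it read 9.52, 9.14 and 8.95 in injured cord, against 8.56, 8.84 and 9.22 in sham cord. Its groups also overlapped, with changes of -0.20 (adjusted p = 0.38) and 0.33 (adjusted p = 0.097), and the total RNA change was called with array weights (0.39, adjusted p = 0.039) and without total injured replicate 3 or total sham replicate 3.

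The difference between the change on polysomes and that in total RNA was called for 11 of the 21 member probe sets, 3 higher and 8 lower, from 6 genes. Over all probe sets 50.6% were called, 13.6% higher and 37% lower, so members and array were close. The 3 higher ones were Irs2, Igfbp5 1422313_a_at (0.71, limma adjusted p = 2.5e-05) and Igfbp4 1421991_a_at (0.23, limma adjusted p = 0.022). The Igfbp4 probe set was at background on all polysome-bound injured arrays, which limits how far a fall on polysomes could be measured.

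Within a group, the polysome-bound level was set against the total level of the same probe set, with the caution that the fractions were labelled from 3 µg of polysome-bound RNA and 5 µg of total RNA and deposited on scales whose medians differ. In injured cord 20 of 21 member probe sets were called, 1 higher and 19 lower on polysomes, where 86.6% of all probe sets were called, 12.9% higher and 73.7% lower. In sham cord 19 were called, 2 higher and 17 lower, where 81.2% were called, 18.6% higher and 62.6% lower. The split depended on the scaling: in injured cord it was 4 higher and 14 lower after quantile normalization over the 12 arrays and 4 and 13 after median centring, and in sham cord 4 and 12, and 3 and 8. The shares of all probe sets are for the deposited values, so the splits after scaling were not set against the array. The median of all probe sets was -0.44 in injured cord and -0.35 in sham cord. Irs2 was the one member higher on polysomes in injured cord as deposited, by 1.87 (SE 0.10), or 2.31 above that median, and it was higher by 0.35 (SE 0.10, limma adjusted p = 0.0042) in sham cord, or 0.71 above the median. Igfbp2 was the other higher one in sham cord, by 0.30 (limma adjusted p = 0.0092), and its difference was 0.08 (adjusted p = 0.44) in injured cord. The sham call of Igfbp2 was lost after quantile normalization within each fraction and without total sham replicate 1 or polysome-bound sham replicate 3, while the injured difference was called after each of the 3 other scalings. Igfbp7 1423584_at was lower by 2.37 in injured cord (limma adjusted p = 2.1e-11), and its difference in sham cord was -0.62 (limma adjusted p = 1.9e-05), a call that median centring removed. Igfbp3 was lower in injured cord by 1.18 (limma adjusted p = 0.0024), a call that median centring removed. In sham cord its difference was -0.15 (adjusted p = 0.65). A block for the replicate number over the 6 sham arrays, added after seeing the data, brought it under the threshold (limma adjusted p = 0.012). The same block did so for Igfbp6, whose difference in sham cord was -0.29 (adjusted p = 0.11, and 0.00018 with the block).

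**Figure D3:**
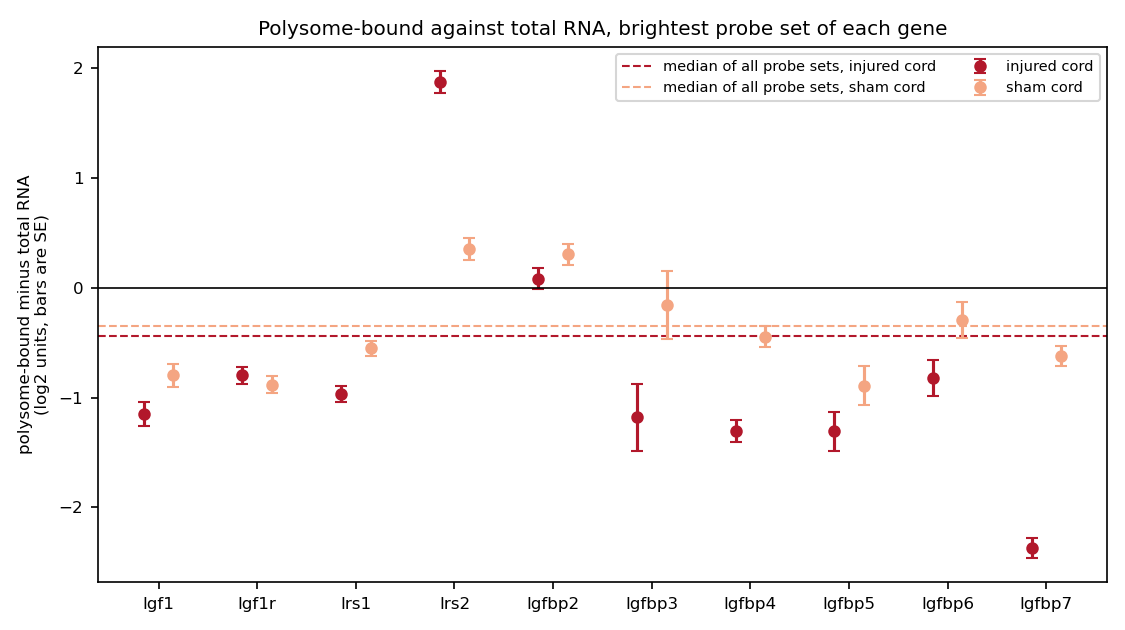
Polysome-bound minus total RNA (log2 units, bars are limma standard errors) for the brightest probe set of each of the 10 genes, red for injured and orange for sham cord, with dashed lines at the median of all probe sets. Irs2 lies at 1.87 in injured and 0.35 in sham cord, and Igfbp7 at -2.37 and -0.62.

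Of 65 other genes of the pathway, listed by role, 51 were tested, each by its brightest probe set. On polysomes 19 were higher and 4 lower in injured cord, where 13.5% and 24.9% of all 10371 genes were called higher and lower. In total RNA 21 were higher and 7 lower, where 41.8% and 17.9% of genes were called. After quantile normalization over the 12 arrays these counts were 22 and 3 on polysomes and 13 and 9 in total RNA, so the total RNA counts depend on the scaling. The shares of all genes are for the deposited values, and the counts after other scalings were not set against them.

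Among 5 other ligands and receptors, 1 rose and none fell on polysomes, where 13.5% and 24.9% of all genes were called higher and lower. In total RNA, where these shares were 41.8% and 17.9%, 1 rose and 3 fell as deposited. After either quantile normalization, 1 rose and 1 fell in total RNA. Igf2r, which clears IGF2, rose by 0.27 on polysomes and by 0.36 in total RNA as deposited. The insulin receptor Insr and its relative Insrr, counted above as lower in total RNA, exceeded the highest absent control on 0 of 3 total injured and 0 of 3 total sham arrays, so no change is given for them. Among 8 genes listed under IGF binding and release, 3 rose and none fell on polysomes, and 2 rose and 1 fell in total RNA. The list mixes genes that act in opposite directions, Stc1 below being an inhibitor of release, so its counts give no direction of IGF binding. Ccn1, a matrix protein of the CCN family, rose by 1.44 on polysomes and 1.81 in total RNA, and the secreted protease Htra1 by 0.70 and 0.84. Stc1, an inhibitor of Pappa, rose by 0.25 on polysomes, and Pappa had a change of -0.26 in total RNA. Pappa read 6.92 in total injured and 7.19 in total sham RNA, close to background. The highest absent control was itself lower on total injured arrays, averaging 6.85 against 7.04 on total sham arrays.

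Of 10 further adaptors and phosphatases, 4 rose and 1 fell in each fraction as deposited. The shares of all genes called higher and lower were 13.5% and 24.9% on polysomes, and 41.8% and 17.9% in total RNA. The 4 risers were thus near the share of all genes in total RNA and above it on polysomes. After quantile normalization over the 12 arrays, 3 rose and 3 fell in total RNA. Ptpn1, the phosphatase that acts on the insulin and IGF receptors, rose by 0.65 on polysomes and 0.50 in total RNA, and Ptpn11 by 0.48 and 0.72. Grb2 rose by 0.37 on polysomes. Of 9 genes of the PI3-kinase and AKT step, 3 rose and 2 fell on polysomes, among them Phlpp1, a phosphatase of AKT, with a change of -0.43. In total RNA 1 of the 9 rose and none fell as deposited, and none rose and 3 fell after either quantile normalization. Pdpk1, the kinase that activates AKT, rose by 0.34 on polysomes and 0.38 in total RNA as deposited, and its total RNA call was lost after either quantile normalization.

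Among 9 genes listed as FoxO factors or FoxO targets, 6 rose and none fell on polysomes, and 7 rose and 2 fell in total RNA (5 and none after either quantile normalization). As deposited, 13.5% of all genes were called higher and 24.9% lower on polysomes, and 41.8% and 17.9% in total RNA. Pdk4, a brake on glucose oxidation, rose by 1.19 on polysomes and 1.43 in total RNA, and the transcription factor Klf15 by 0.61 and 0.71, both of which glucocorticoids are also known to induce. Of the factors, as deposited, Foxo3 rose by 0.52 on polysomes and 0.38 in total RNA, and Foxo1 by 0.36 and 0.49. Foxo4 had changes of 0.01 on polysomes (adjusted p = 0.90) and -0.23 in total RNA (limma adjusted p = 0.002), and the total RNA call was lost after either quantile normalization. Its total RNA levels, 6.95 in injured and 7.18 in sham cord, were close to the highest absent control. Of 9 genes of the mTOR arm, 2 rose and 1 fell on polysomes and 6 rose in total RNA (1 higher and 1 lower after either quantile normalization). Ddit4, a stress-induced inhibitor of mTOR, rose by 0.66 in total RNA as deposited, a call that either quantile normalization removed. Tsc2, a subunit of the complex that inhibits mTOR, fell by 0.62 on polysomes. Its partner Tsc1 rose there by 0.28. Eif4ebp1, the translational repressor that mTOR inactivates, rose by 0.22 on polysomes and 0.39 in total RNA.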

How the data were processed

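Levels were read from the table of processed values deposited by the authors for 12 arrays. The scale is log2, taken from the range of the deposited values (5.26 to 14.65); the background correction and normalization are not given in the sources used here, and the values were used as deposited. Per the labels' protocols, labelled cRNA was made with biotin, starting from 3 µg for the polysome-bound samples and 5 µg for the total RNA samples.

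Of 22690 probe sets, 20393 named 1 gene, 691 several and 1606, with 64 controls among them, none. Of the 20393, 16566 exceeded, on 3 or more arrays, the 25th percentile of that array and were tested. Symbols came from the platform annotation, and all 10 members matched RefSeq (GRCm38.p6). One limma 3.58.1 fit (R 4.3.3, statmod 1.5.0) gave each of the 4 groups a mean, with empirical Bayes moderation along an intensity trend, 8 residual degrees of freedom and 14.13 after moderation. P-values are two-sided and adjusted by the Benjamini-Hochberg method over all 16566 probe sets of each of 5 comparisons, at 0.05. The procedure was tested on simulated data. Errors of changes are limma standard errors. The number of arrays, 3 a group, limits the precision. A probe set was called at background where it did not exceed the highest of 27 absent controls.

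All member probe sets are named. Pathway genes, by their brightest probe set, and cell markers come from fixed lists, and at most 3 called pathway genes of the largest change are named per list and injury comparison. A gene so named may also be given in the other fraction, and Foxo4 is given beside the other FoxO factors. For Irs2 the 5 most correlated genes are named, and for Igfbp5 the first 2. Members and lists were chosen with earlier results of these data known. The alternatives were other filters and scalings, 1 probe set a gene, no trend, array weights, the compared arrays alone, replicate blocks and leaving out each array. The labels do not say that equal replicate numbers mark the same animal. Total and polysome-bound deviations of equal number correlated at 0.19, 0.17 and 0.14 in sham samples and at -0.09, 0.06 and 0.04 in injured samples. Between groups, arrays of different number correlated at up to 0.45, and 6 of 36 such pairs exceeded 0.1, so pairing is not established. A block of the replicate number over the 6 sham arrays was added after seeing the data.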

Additional observations from a re-analysis of the deposited data

Results flagged for a closer look

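For 11 member probe sets the change after injury on polysomes differed from that in total RNA by the test of the difference itself (limma, adjusted over 16566 probe sets). It was positive, so that injured cord gained more or lost less on polysomes than in total RNA, for Irs2 (1.52), Igfbp5 1422313_a_at (0.71) and Igfbp4 1421991_a_at (0.23). It was negative for Igfbp7 1423584_at (-1.75), for 4 Igfbp4 probe sets (1423756_s_at at -0.95, 1437405_a_at at -0.86, 1437406_x_at at -0.51 and 1423757_x_at at -0.44), for Irs1 (-0.41), for Igf1 1452014_a_at (-0.41) and for Igfbp7 1423585_at (-0.19). The Igfbp7 probe set 1423585_at lay at background on all 12 arrays, and Igfbp4 1421991_a_at did so on the 3 polysome-bound injured arrays. The difference for Igf1 1452014_a_at was not called when any of 8 of the 12 arrays was left out. It was also lost after median centring. The differences for Igfbp4 1437406_x_at (-0.17 over the 12 arrays, adjusted p = 0.25) and 1423757_x_at (-0.12, adjusted p = 0.41) were not called after either quantile normalization, nor was that for Irs1. The difference for Igfbp7 1423585_at was not called after median centring (-0.10, adjusted p = 0.26) or without total sham replicate 2, polysome-bound injured replicate 3 or polysome-bound sham replicate 2, and that for Igfbp4 1421991_a_at was not called without total injured replicate 1 or polysome-bound sham replicate 3.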

How the results depend on the processing

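The calls of Irs2 and of Igfbp7 1423584_at in both injury comparisons, and of the difference between them, held under each setting tried and without any 1 array. Both genes were chosen with these responses in view, so the held calls are no separate evidence. Irs2 ranged from 0.57 to 0.78 on polysomes and from -0.88 to -0.74 in total RNA when an array was left out. With 1 probe set a gene, which by construction leaves 10 of the 21 probe sets, the counts called were 5 on polysomes, 6 in total RNA, 4 for the difference, 9 between fractions in injured cord and 8 in sham cord. Leaving out each array gave 10 to 12 called on polysomes, 12 to 14 in total RNA, 8 to 14 for the difference, 19 to 20 between fractions in injured cord and 18 to 19 in sham cord. Median centring left 11 called between fractions in sham cord. The split of calls moved with the scaling: on polysomes 2 higher and 10 lower as deposited became 4 and 8 after quantile normalization over the 12 arrays, and in total RNA 8 and 6 became 5 and 7. The median of all probe sets moved too, from -0.05 to 0.01 on polysomes and from 0.08 to 0.003 in total RNA. Shares over the array are given for the deposited values only, so these splits are not a result about the members.

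Igfbp4 1423757_x_at in total RNA turned to -0.0052 after quantile normalization over the 12 arrays and to -0.0041 within each fraction. Between fractions in injured cord, the same normalization over the 12 arrays turned Igf1r 1452108_at to 0.19, Igfbp5 1422313_a_at to 0.14 and Igfbp7 1437804_at to 0.087, and median centring turned them to 0.30, 0.15 and 0.084. In sham cord it turned Igf1 1452014_a_at to 0.11, Igf1 1419519_at to 0.29 and Igf1r 1452108_at to 0.23, and centring turned these to 0.051, 0.20 and 0.14 and also Igfbp4 1437405_a_at to 0.066 and 1437406_x_at to 0.16. These scalings remove the offset between the fractions: the median of all probe sets in injured cord, -0.44 as deposited, became 0.03 after quantile normalization over the 12 arrays and 0.16 after centring. The replicate number as a block over all arrays, fixed or random, changed no call (12 on polysomes, 14 in total RNA, 11, 20 and 19). Over the 6 sham arrays, the block that was added after seeing the data gave 21 calls in place of 19, adding Igfbp3 and Igfbp6. Whether equal numbers pair these arrays is not established. Dim probe sets near the absent controls are limited by signal over background.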
